A study of Homo sapiens with 6 samples.

Results

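The genes described here are 32 genes of cholesterol and fatty acid synthesis that are placed under the SREBP transcription factors, out of 62710 genes in the deposited tables. They were chosen by gene symbol, as a pathway whose levels in these same 6 libraries had already been seen to vary, so the differences inside and between the groups are given as a description and the list is not independent evidence of its own direction. By role, 18 are enzymes of sterol synthesis, 5 are regulators of SREBP, 1 (STARD4) carries sterols between membranes and 8 are enzymes of fatty acid synthesis. All 32 passed the filter on low counts and were tested among 16753 genes.

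HCT116, a line from a human colon carcinoma, was the source of all libraries. The cells carried either a lentiviral scrambled control (sh-NC, 3 libraries) or a lentiviral shRNA against IGF2BP3, an RNA-binding protein of fetal tissues and tumours (sh-IGF2BP3, 3 libraries). Both were stable lines selected with puromycin after infection, and the knockdown used 1 shRNA. The labels name no further treatment and do not say whether the 3 libraries of a group came from separate cultures, so p-values measure the spread between these libraries, which may be technical. A library is named by its group and number, as the labels give them. The series is described as pairs of control and knockdown cells, without naming which libraries form a pair, and libraries of the same number did not deviate together, so the groups were compared unpaired.

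SREBP proteins are made as precursors held in the endoplasmic reticulum by SCAP, their escort, and by the INSIG proteins, which retain SCAP when sterols are plentiful. When sterols run low, SCAP carries the precursor to the Golgi, where proteases release the part that enters the nucleus and raises transcription of the genes of sterol and fatty acid synthesis. INSIG1 is itself such a target, so its RNA falls when sterols accumulate. SREBP binds sterol regulatory elements weakly by itself and acts beside NF-Y and SP1, which bind the CCAAT box and the GC box. Colon epithelium, like most tissues, can make its own cholesterol, and tumour cells often run fatty acid synthesis at a high rate.

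Promoter sequence, from the RefSeq table on GRCh38.p14 (250 bases before to 50 bases after each annotated start), was matched for 28 of the 32 genes, in 39 windows because some genes have several starts. ACAT2, FDFT1, SQLE and FASN had no entry. The 250 bases before the start, 5′ to 3′ on the strand of the gene, are printed for the 4 genes with the widest ratio of highest to lowest library within a group, and for SREBF2, whose window held the only match to the sterol regulatory element and whose level hardly varied. Capitals mark the CCAAT box (CCAAT, or ATTGG where it lies on the other strand) and, in SREBF2, also the sterol regulatory element.
INSIG1 (chr7:155297628-155297877, + strand): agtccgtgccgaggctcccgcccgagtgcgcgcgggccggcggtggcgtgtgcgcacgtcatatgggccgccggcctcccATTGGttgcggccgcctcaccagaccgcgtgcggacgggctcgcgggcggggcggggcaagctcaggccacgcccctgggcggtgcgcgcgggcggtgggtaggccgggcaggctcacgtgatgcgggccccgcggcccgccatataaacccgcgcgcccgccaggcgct
HMGCS1 (chr5:43313413-43313662, - strand): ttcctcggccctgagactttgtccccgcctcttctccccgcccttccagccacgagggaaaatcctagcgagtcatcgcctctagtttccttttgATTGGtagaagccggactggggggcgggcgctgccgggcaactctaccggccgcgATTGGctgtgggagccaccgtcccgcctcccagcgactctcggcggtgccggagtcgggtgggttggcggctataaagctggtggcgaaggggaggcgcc
IDI1 (chr10:1049120-1049369, - strand): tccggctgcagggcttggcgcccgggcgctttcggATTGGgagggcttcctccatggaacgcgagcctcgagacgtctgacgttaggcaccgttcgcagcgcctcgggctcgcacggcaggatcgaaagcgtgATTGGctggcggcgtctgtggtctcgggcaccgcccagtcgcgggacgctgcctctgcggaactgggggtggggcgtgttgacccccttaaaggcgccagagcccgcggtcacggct
MSMO1 (chr4:165327419-165327668, + strand): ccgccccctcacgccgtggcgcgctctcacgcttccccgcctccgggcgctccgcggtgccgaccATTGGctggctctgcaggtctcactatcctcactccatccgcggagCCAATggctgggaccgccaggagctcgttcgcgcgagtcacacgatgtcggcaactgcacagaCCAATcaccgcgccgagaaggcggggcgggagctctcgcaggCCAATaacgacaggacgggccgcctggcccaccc
SREBF2 (chr22:41832855-41833104, + strand): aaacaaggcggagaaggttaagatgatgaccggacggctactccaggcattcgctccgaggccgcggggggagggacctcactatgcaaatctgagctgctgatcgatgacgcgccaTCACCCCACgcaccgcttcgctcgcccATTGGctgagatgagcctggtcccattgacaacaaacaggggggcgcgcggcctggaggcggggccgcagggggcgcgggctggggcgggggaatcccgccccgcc

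The box of NF-Y, searched as CCAAT on both strands, was found in 25 of the 39 windows (64.1%), from 21 genes, against 34.6% of all 35116 windows in the table. In the printed windows, MSMO1 had 4 matches, with first bases 185, 139, 76 and 34 bases before the start. HMGCS1 had matches at 155 and 100, IDI1 at 215 and 117, and INSIG1 at 170 bases before the start. HMGCS1 has 2 windows, of which the one farther upstream is printed and the other had 0 matches. IDI1 has 3 windows, of which the middle one is printed, one other had 3 matches, at 132, 129 and 87, and the farthest upstream had 0. These windows were picked after the matches were seen. The GC box, searched as GGGCGG, was found in 35 windows (89.7%) against 45% of all windows, and the E-box CACGTG in 5 windows (12.8%) against 7.26%. The sterol regulatory element, searched as TCACNCCAC with N as any base, matched in 1 window (2.56%), against 1.13% of all windows. The match was that of SREBF2, at 133 bases before the start. Other spellings of the element and sites outside the windows were not searched, so no match does not mean that a gene lacks the element. Matches of different motifs can share bases, a match is a description of the sequence, and windows of 1 gene can overlap, so these shares are not independent counts of genes.

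The counts on genes came to 16146718 to 23576469 per library, and levels are given as CPM, counts scaled to a common library size. Mitochondrial genes took 5.24% to 7.76% of the counts. Of 10 colon epithelial markers, 8 were above 10 CPM in all 6 libraries, while CDX1 and VIL1 were below 1 CPM. Of 13 markers of fibroblasts, leukocytes, endothelium and hepatocytes, 10 were below 1 CPM in all libraries, 2 of them (COL1A2 and LUM) at 0. PDGFRB and PECAM1 reached 1.14 and 1.64 CPM, while COL1A1 was at 28.0 to 58.5 CPM. The summed level of these 13 markers was 30.5 to 50.4 CPM in sh-NC and 32.2 to 61.1 CPM in sh-IGF2BP3. IGF2BP3 was at 90.3, 84.1 and 70.3 CPM in sh-NC 1, 2 and 3 and at 60.2, 52.3 and 55.8 CPM in sh-IGF2BP3 1, 2 and 3. The groups did not overlap, but the log2 fold change of -0.54 (SE 0.18) did not pass adjustment over all genes (edgeR quasi-likelihood test, adjusted p = 0.126). With each library's trend with GC content and gene length removed, it was -0.26 (SE 0.18, adjusted p = 0.624) and the groups overlapped.

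Before any contrast between the groups, the 6 libraries fell into an order for these genes that the labels do not give. Within sh-NC, library 1 was the highest in 31 of 32 genes, all but INSIG2, where 48.7% of all genes of at least 10 mean CPM (9797 genes) were highest in that library. Within sh-IGF2BP3, library 1 was the lowest in 25 of 32 genes, against 43.4% of those genes. Both held for 24 of 32 genes, against a background of 21.5%. In 22 of 32 genes the 3 highest libraries were sh-NC 1, sh-IGF2BP3 2 and sh-IGF2BP3 3, against 11.7% of all genes of at least 10 mean CPM. The exceptions were PMVK, FDPS, LSS, CYP51A1, TM7SF2, SREBF1, SREBF2, SCAP, INSIG2 and FASN. The libraries carry no label that accounts for this order, and its cause was not tested. In bulk RNA, fewer cells making a transcript and less of it per cell cannot be told apart. The median log2 deviation of the eighth of genes with the highest GC content was -0.11, -0.36 and -0.32 for the sh-NC libraries by number. It was 0.58, 0.30 and -0.04 for those of sh-IGF2BP3. On this measure library 1 was the highest within each group. Most of the 32 genes shared that within sh-NC, but not within sh-IGF2BP3.

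The summed level of the 32 genes was 11736, 6759 and 6368 CPM in sh-NC 1, 2 and 3. It was 9081, 12115 and 12281 CPM in sh-IGF2BP3 1, 2 and 3. FASN and SCD make up most of these sums. Over the 18 sterol enzymes alone the sums were 2009, 984 and 964 CPM in sh-NC and 1295, 2208 and 2007 CPM in sh-IGF2BP3. On either sum, sh-NC 1 stood beside sh-IGF2BP3 2 and 3, and sh-IGF2BP3 1 stood below them. The map of all 32 genes by library shows this order in 22 of them and other orders in the 10 named above, such as PMVK, which was highest in sh-IGF2BP3 1.

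**Figure D1:**
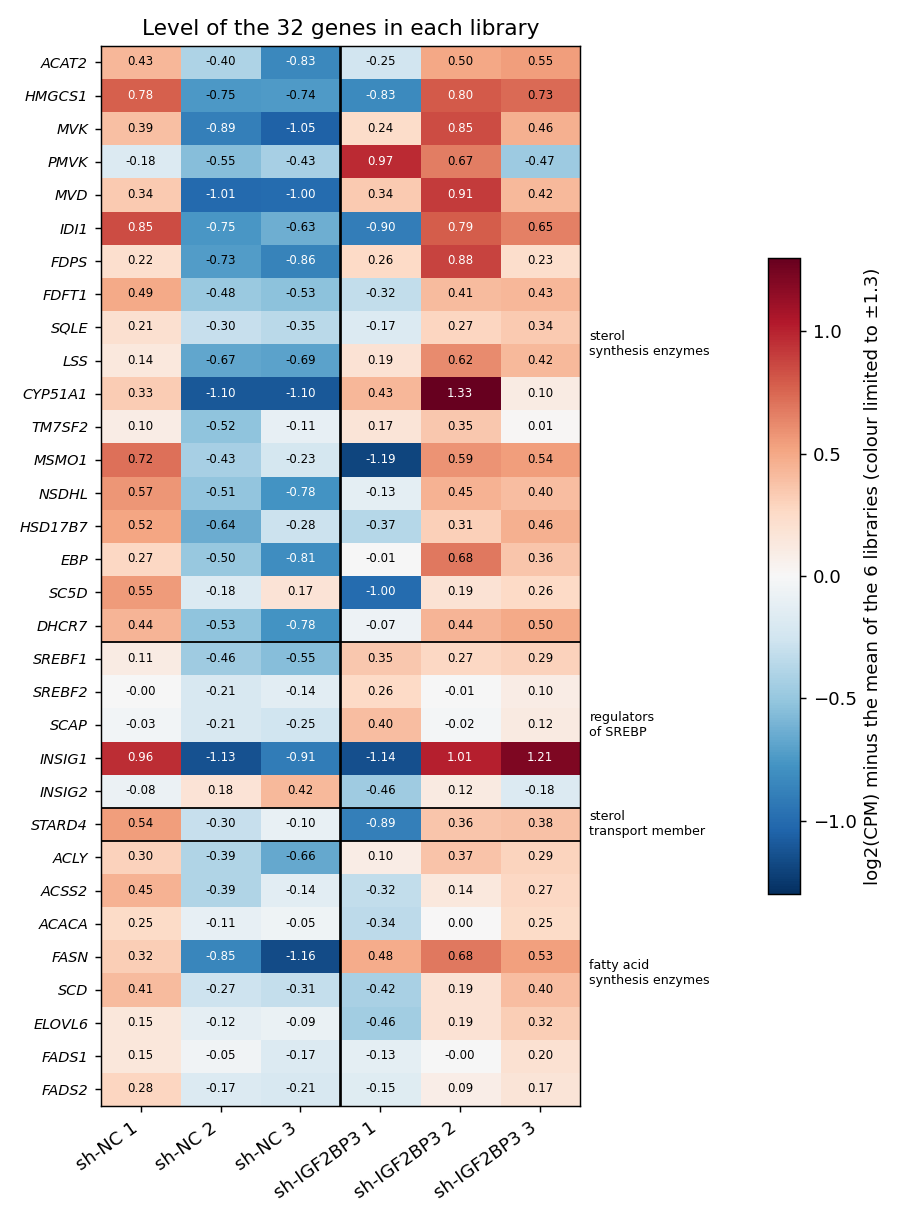
Log2 CPM of each of the 32 genes (rows, by role) in each of the 6 libraries (columns), as the difference from the mean of the gene over the 6 libraries, with the value printed in each cell. Red marks a level above and blue a level below the mean, and INSIG1 runs from -1.14 in sh-IGF2BP3 1 to 1.21 in sh-IGF2BP3 3.

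The spread inside the groups was wide. In 23 of 32 genes the highest sh-NC library was at least 1.5 times the lowest, against 29.6% of all genes of at least 10 mean CPM. In 18 of 32 genes the same held within sh-IGF2BP3, against 28.9%. In 15 of 32 it held within both groups, against 10.6%. In 5 of 32 (HMGCS1, IDI1, CYP51A1, MSMO1 and INSIG1) the highest library was at least 2 times the lowest in both groups. The share of all genes at 2 times was not computed. The median ratio of highest to lowest library was 1.87 in sh-NC and 1.52 in sh-IGF2BP3 for the 32 genes, and 1.32 and 1.35 for all genes of at least 10 mean CPM. By role, the ratio was at least 1.5 within sh-NC in 16 of 18 sterol enzymes, 4 of 8 fatty acid enzymes and 2 of 5 regulators. Within sh-IGF2BP3 it was in 12 of 18, 4 of 8 and 1 of 5, and the roles were not compared by a test.

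**Figure D2:**
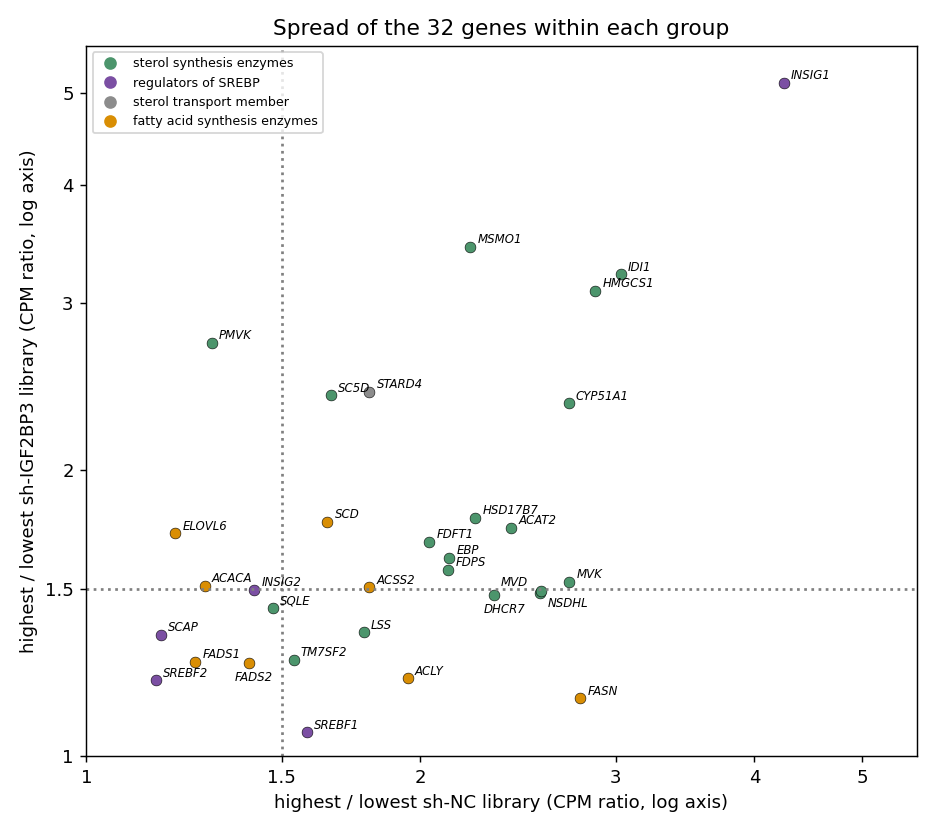
Ratio of the highest to the lowest library, in CPM, within sh-NC (horizontal, log axis) and within sh-IGF2BP3 (vertical, log axis) for each of the 32 genes, coloured by role, with dotted lines at 1.5. INSIG1 lies farthest out at 4.25 and 5.12, while SREBF2 (1.16 and 1.20) and FADS1 (1.25 and 1.26) lie near the origin.

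The regulators did not share 1 pattern. INSIG1, the retention protein that SREBP itself induces, was at 243.7, 57.3 and 66.7 CPM in sh-NC 1, 2 and 3 and at 56.9, 253.5 and 291.2 CPM in sh-IGF2BP3 1, 2 and 3. It had the widest spread of the 32 genes, 4.25 times within sh-NC and 5.12 times within sh-IGF2BP3, and the range of sh-NC lay inside that of sh-IGF2BP3. INSIG2, a related retention protein not known as an SREBP target, was at 15.9, 19.0 and 22.5 CPM in sh-NC and at 12.2, 18.2 and 14.8 CPM in sh-IGF2BP3. Unlike INSIG1, INSIG2 was lowest in sh-NC 1 among the sh-NC libraries. Its log2 fold change was -0.34 (SE 0.24, adjusted p = 0.402), the lowest of the 32.

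SREBF1, which encodes the SREBP form known mainly for fatty acid synthesis, was at 393.5, 265.3 and 249.2 CPM in sh-NC and at 465.4, 439.2 and 448.4 CPM in sh-IGF2BP3. All 3 sh-IGF2BP3 libraries were above all 3 sh-NC libraries, with sh-NC 1 between the others and the knockdown. The log2 fold change was 0.58 (SE 0.21, adjusted p = 0.139), and 0.19 (SE 0.20) with the GC and length trends removed, when the groups overlapped. SREBF1 has a GC content of 62.8%, where the median of all tested genes is 48.7%. SREBF2, which encodes the form known mainly for sterol synthesis, was at 321.9, 278.6 and 293.1 CPM in sh-NC and at 385.9, 321.1 and 345.1 CPM in sh-IGF2BP3. It varied by 1.16 times within sh-NC and 1.20 times within sh-IGF2BP3, and the groups overlapped by the sh-NC 1 and sh-IGF2BP3 2 libraries. SCAP was at 105.2, 93.3 and 90.2 CPM in sh-NC and at 142.1, 106.0 and 116.9 CPM in sh-IGF2BP3. Its groups did not overlap, by a margin of less than 1 CPM, and with the trends removed its log2 fold change turned from 0.34 (SE 0.18) to -0.07 (SE 0.15).

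Of the first steps of sterol synthesis, HMGCS1 and IDI1 varied by about as much as MSMO1, a later enzyme, and ACAT2 by less. HMGCS1 (chromosome 5, 43287470 to 43313512, minus strand, GRCh38) makes HMG-CoA, the substrate of the rate-limiting reductase. It was at 252.7, 87.9 and 88.3 CPM in sh-NC 1, 2 and 3 and at 83.0, 256.7 and 245.2 CPM in sh-IGF2BP3 1, 2 and 3. The single library of each group that differed stood at the level of the other group's pair. ACAT2, the cytosolic thiolase before it, was at 70.4, 39.4 and 29.2 CPM in sh-NC and at 43.8, 74.0 and 76.2 CPM in sh-IGF2BP3. IDI1, the isopentenyl diphosphate isomerase (chromosome 10, 1039152 to 1049119, minus strand), was at 134.7, 44.4 and 48.2 CPM in sh-NC and at 40.1, 129.2 and 118.0 CPM in sh-IGF2BP3. The 3 genes had the same libraries high and low, and the log2 fold changes between the groups were 0.45 (SE 0.40) for HMGCS1, 0.48 (SE 0.29) for ACAT2 and 0.34 (SE 0.41) for IDI1. The promoters of HMGCS1 and IDI1 are printed above.

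The mevalonate kinases and the decarboxylase turn mevalonate into isopentenyl diphosphate. MVK and MVD had the same 3 highest libraries as INSIG1, while PMVK did not. MVK was at 47.5, 19.5 and 17.4 CPM in sh-NC and at 42.7, 65.1 and 49.9 CPM in sh-IGF2BP3. MVD was at 114.7, 44.7 and 45.0 CPM in sh-NC and at 114.6, 170.4 and 121.3 CPM in sh-IGF2BP3. For both, sh-IGF2BP3 1 was near sh-NC 1, while sh-NC 2 and 3 were well below both. PMVK was at 10.7, 8.3 and 9.0 CPM in sh-NC and at 23.8, 19.4 and 8.7 CPM in sh-IGF2BP3, so its highest library was sh-IGF2BP3 1 and its lowest knockdown library was sh-IGF2BP3 3. The log2 fold changes were 0.90 (SE 0.31) for MVK, 0.99 (SE 0.31) for MVD and 0.89 (SE 0.31) for PMVK, and with the trends removed 0.67, 0.50 and 0.41. The GC content of the 3 genes is 58.2%, 63.7% and 59.5%.

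FDPS, the farnesyl diphosphate synthase (chromosome 1, 155308748 to 155320666, plus strand), was at 109.1, 56.6 and 51.5 CPM in sh-NC and at 112.6, 172.8 and 109.9 CPM in sh-IGF2BP3. The groups did not overlap, but sh-NC 1 and sh-IGF2BP3 3 were less than 1 CPM apart. FDFT1, which makes squalene, was at 298.3, 151.5 and 146.4 CPM in sh-NC and at 170.1, 281.8 and 286.0 CPM in sh-IGF2BP3. SQLE, the squalene epoxidase, ranged from 99.3 to 146.2 CPM in sh-NC and from 112.2 to 160.8 CPM in sh-IGF2BP3. LSS, which closes the ring of lanosterol (chromosome 21, 46188141 to 46228824, minus strand), was at 173.6, 99.0 and 97.7 CPM in sh-NC and at 179.5, 242.4 and 211.1 CPM in sh-IGF2BP3. LSS had the smallest adjusted p of the 32 genes, with a log2 fold change of 0.77 (SE 0.23, edgeR adjusted p = 0.115). FDPS had a log2 fold change of 0.86 (SE 0.27, adjusted p = 0.117). Both remained above 0.5 with the trends removed, at 0.56 and 0.59, and both then overlapped between the groups.

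Of the 8 enzymes after lanosterol, 6 had the same 3 highest libraries as INSIG1, the exceptions being CYP51A1 and TM7SF2. CYP51A1, the lanosterol demethylase (chromosome 7, 92084987 to 92134803, minus strand), was at 22.8, 8.4 and 8.4 CPM in sh-NC and at 24.5, 45.7 and 19.4 CPM in sh-IGF2BP3. Its log2 fold change of 1.18 (SE 0.38, adjusted p = 0.121) was the largest of the 32 genes, and it was 1.36 (SE 0.43) with the trends removed. Its groups overlapped, since sh-NC 1 was above sh-IGF2BP3 3. MSMO1, a sterol oxidase, was at 135.7, 61.2 and 70.1 CPM in sh-NC and at 35.9, 123.5 and 120.0 CPM in sh-IGF2BP3. The group means of MSMO1 were close, 89.0 ± 40.7 CPM in sh-NC and 93.1 ± 49.6 CPM in sh-IGF2BP3 (SD, n = 3 each). MSMO1 had the widest spread within sh-IGF2BP3 after INSIG1, at 3.44 times.

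NSDHL and HSD17B7, which act with MSMO1 in removing the methyl groups of lanosterol, followed the same libraries. NSDHL was at 48.0, 22.6 and 18.7 CPM in sh-NC and at 29.4, 44.0 and 42.4 CPM in sh-IGF2BP3. HSD17B7 was at 25.8, 11.5 and 14.9 CPM in sh-NC and at 14.0, 22.4 and 24.9 CPM in sh-IGF2BP3. EBP, the sterol isomerase, was at 16.8, 9.9 and 7.9 CPM in sh-NC and at 13.9, 22.5 and 18.0 CPM in sh-IGF2BP3. In each of the 3 genes sh-NC 1 was highest in sh-NC and sh-IGF2BP3 1 lowest in sh-IGF2BP3.

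SC5D, a desaturase of the last steps, was at 92.9, 55.9 and 71.6 CPM in sh-NC and at 31.7, 72.5 and 76.2 CPM in sh-IGF2BP3. It was the only sterol enzyme of the 18 with a negative log2 fold change, -0.29 (SE 0.28), and sh-IGF2BP3 1 was its lowest library. DHCR7, the last reductase of the pathway, was at 289.5, 147.8 and 124.2 CPM in sh-NC and at 203.0, 289.1 and 300.4 CPM in sh-IGF2BP3. TM7SF2, a sterol reductase, was at 19.2, 12.5 and 16.7 CPM in sh-NC and at 20.2, 22.9 and 18.1 CPM in sh-IGF2BP3. TM7SF2 was the flattest of these with a GC content of 64.2%, and its log2 fold change turned from 0.34 (SE 0.23) to -0.22 (SE 0.20) with the trends removed. STARD4, the sterol carrier, was at 90.8, 50.5 and 58.2 CPM in sh-NC and at 33.6, 80.1 and 81.2 CPM in sh-IGF2BP3. Its group means, 66.5 ± 21.4 and 64.9 ± 27.2 CPM (SD, n = 3 each), differed by less than the spread within either group.

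**Figure D3:**
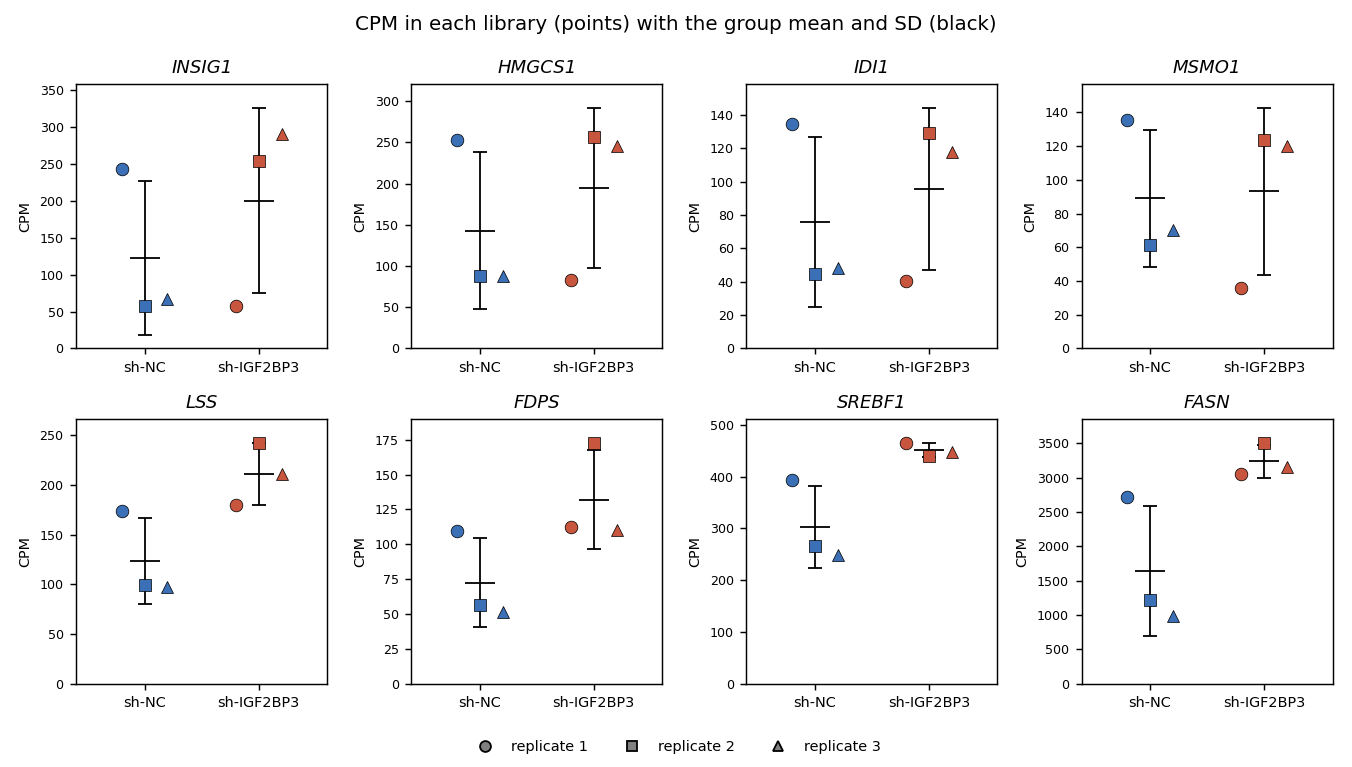
CPM of 8 of the genes in each library (points, replicate number by shape) with the mean and SD of each group of 3 (black). In INSIG1, HMGCS1, IDI1 and MSMO1 the circle (library 1) is the high sh-NC point and the low sh-IGF2BP3 point, while in LSS, FDPS, SREBF1 and FASN all 3 sh-IGF2BP3 points lie above all 3 sh-NC points.

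Of the fatty acid enzymes, FASN stood apart from the others. FASN, the fatty acid synthase (chromosome 17, 82078338 to 82098294, minus strand), was at 2724, 1213 and 978 CPM in sh-NC and at 3049, 3510 and 3164 CPM in sh-IGF2BP3. The groups did not overlap, and the spread was 2.79 times within sh-NC but 1.15 times within sh-IGF2BP3. The log2 fold change was 0.98 (SE 0.30, adjusted p = 0.117), and 0.62 (SE 0.36) with the trends removed, when the groups overlapped. FASN has the highest GC content of the 32 genes, 65.3%.

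ACLY, which makes cytosolic acetyl-CoA from citrate, was at 793.5, 491.5 and 407.5 CPM in sh-NC and at 688.6, 831.9 and 788.0 CPM in sh-IGF2BP3. ACSS2, which makes it from acetate, was at 79.3, 44.1 and 52.5 CPM in sh-NC and at 46.2, 63.6 and 69.6 CPM in sh-IGF2BP3. ACACA, the acetyl-CoA carboxylase, was at 588.5, 460.5 and 477.9 CPM in sh-NC and at 391.0, 496.9 and 591.0 CPM in sh-IGF2BP3. All 3 had sh-NC 1 as the highest sh-NC library and sh-IGF2BP3 1 as the lowest sh-IGF2BP3 library. Their log2 fold changes were 0.45 (SE 0.24), 0.03 (SE 0.23) and -0.05 (SE 0.21).

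SCD, the stearoyl-CoA desaturase, was at 4082, 2560 and 2476 CPM in sh-NC and at 2299, 3515 and 4060 CPM in sh-IGF2BP3. ELOVL6, which lengthens palmitate, was at 109.1, 90.7 and 92.5 CPM in sh-NC and at 71.7, 112.1 and 123.2 CPM in sh-IGF2BP3. The desaturases of polyunsaturated fatty acids varied little, FADS1 between 117.5 and 152.3 CPM and FADS2 between 22.6 and 31.7 CPM over all 6 libraries. The groups of SCD, ELOVL6, FADS1 and FADS2 overlapped, and their log2 fold changes were 0.05 to 0.11 with standard errors of 0.18 to 0.25.

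Levels between genes can be compared only per length, on the FPKM scale. SCD had the highest mean over the 6 libraries, 598 FPKM, followed by FASN at 257 and ACLY at 126 FPKM. Of the regulators, SREBF1 (45.3), INSIG1 (43.1) and SREBF2 (42.8) were close to each other, with SCAP at 17.3 and INSIG2 at 4.35 FPKM. The highest sterol enzymes were FDFT1 at 42.2, DHCR7 at 32.3 and MSMO1 at 31.5 FPKM. The lowest of the 32 were FADS2 at 2.48 and HSD17B7 at 3.91 FPKM. The gene lengths behind the FPKM differ from those of the longest annotated transcript. They were 6878 against 2666 bases for DHCR7, 4717 against 2352 for MVD and 2852 against 2269 for MSMO1. The order of genes therefore depends on the lengths used. The order of SREBF1, INSIG1 and SREBF2 did not hold beyond the spread between libraries, since INSIG1 alone ranged from 15.6 to 77.2 FPKM within sh-IGF2BP3.

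The contrast of the study, sh-IGF2BP3 against sh-NC, called 0 of the 32 genes by edgeR at a fold change over 1.5 and an adjusted p under 0.05. The background was 0% of 16753 genes, so a count of 0 says nothing particular about the list. DESeq2 at the same thresholds called 3 of the 32 (MVD, LSS and FASN), all higher, beside 1.92% of the 36335 genes with any count. That share includes genes too low to pass the edgeR filter, which all 32 passed, so the shares are not directly comparable. At an unadjusted p under 0.05, 9 of the 32 were higher and 0 lower in sh-IGF2BP3, against 13.6% and 8.54% of all genes. The 9 were MVK, PMVK, MVD, FDPS, LSS, CYP51A1, EBP, SREBF1 and FASN. Their p ranged from 0.0043 (LSS) to 0.039 (EBP) and their adjusted p from 0.115 to 0.204. By position of the libraries alone, 5 of 32 (FDPS, LSS, SREBF1, SCAP and FASN) had all sh-IGF2BP3 above all sh-NC libraries and 0 the reverse, against 13.2% and 11% of all genes, so the share of higher genes was near the background. Of the 32, 28 had a log2 fold change above 0 and 4 (INSIG2, SC5D, STARD4 and ACACA) below it. The median was 0.34, against -0.014 for all tested genes, with 0.47 for the sterol enzymes, 0.34 for the regulators and 0.07 for the fatty acid enzymes.

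The log2 fold change of all tested genes moved with GC content (Spearman's rho 0.611 across genes, which are not independent replicates), so the contrast is given beside a fit with each library's trends with GC content and gene length removed. In that fit 3 of the 32 (FDPS, LSS and CYP51A1) had an unadjusted p under 0.05 and were higher, against 6.77% of all genes. None of the 32 then had groups that did not overlap, in either direction, against 8.31% and 6.67% of all genes. The median log2 fold change was 0.33, against 0.0098 for all genes, and 0.44 for the sterol enzymes, 0.06 for the regulators and 0.21 for the fatty acid enzymes. The order of the libraries was more uniform in that fit, as sh-NC 1, sh-IGF2BP3 2 and sh-IGF2BP3 3 were the 3 highest in 27 of the 32 genes, but this was also more common among all genes of at least 10 mean CPM, at 28%. The 5 exceptions were PMVK, CYP51A1, TM7SF2, SCAP and INSIG2.

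**Figure D4:**
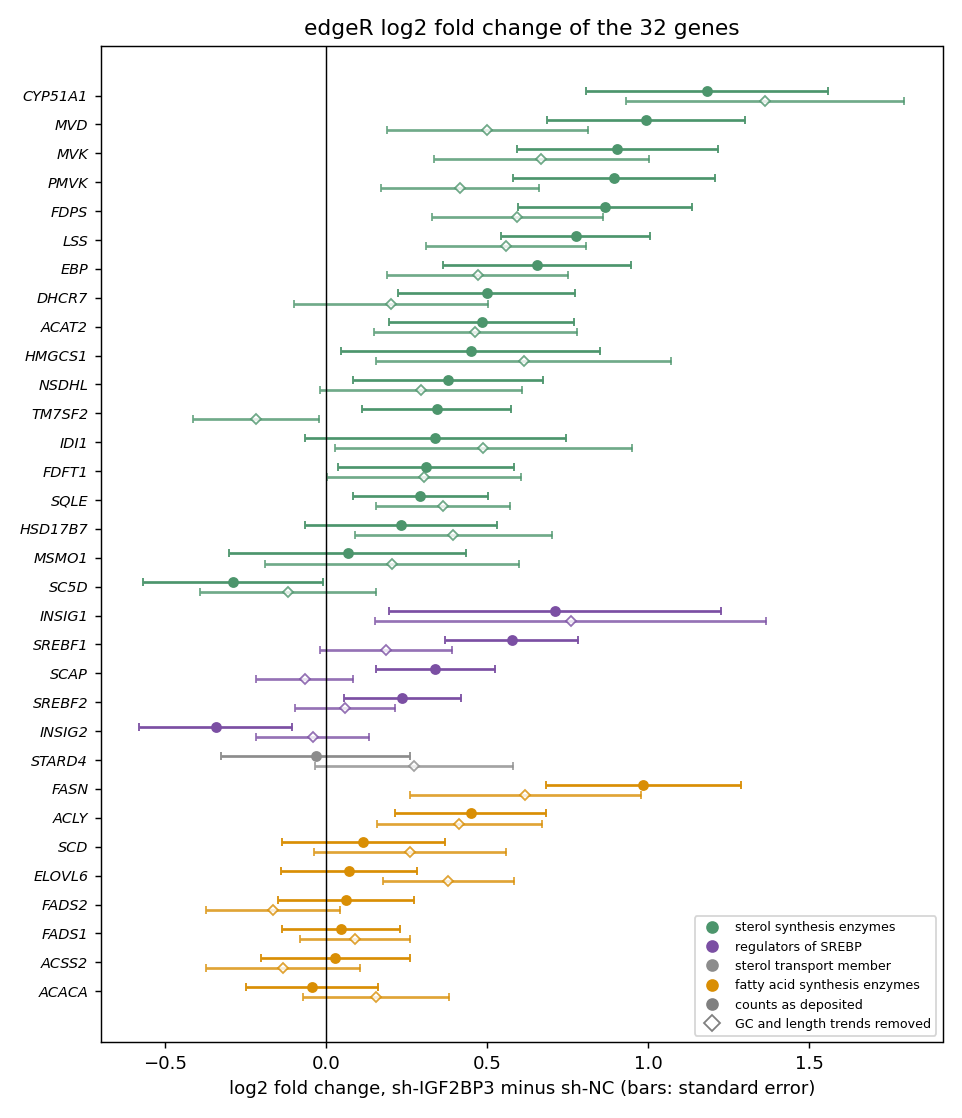
Log2 fold change of sh-IGF2BP3 against sh-NC (edgeR, bars are the standard error) for the 32 genes, grouped by role, from the deposited counts (filled circles) and with the GC and length trends of each library removed (open diamonds). CYP51A1 lies farthest right at 1.18 and 1.36, and TM7SF2, SCAP, ACSS2 and FADS2 move from above 0 to below it, and STARD4 and ACACA the other way.

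The number of genes called depended most on sh-NC 1, and without it 15.7% of all genes were called in either direction. It was the highest sh-NC library in 31 of the 32 genes. Leaving that library out therefore lowers their sh-NC mean, and the direction of the calls is no separate finding. Without that library, edgeR called 17 of the 32 genes higher and 0 lower, against 10% of all genes called higher. These were 13 sterol enzymes, SREBF1, INSIG1, ACLY and FASN, and the median log2 fold change of the 32 was 0.75. Without sh-NC 2 it was 0.19, without sh-NC 3 0.19, and 0 of the 32 were called in either case. Without sh-IGF2BP3 1 it was 0.52, with 0 called. Without sh-IGF2BP3 2, 0 of the 32 and 0% of all genes were called. Without sh-IGF2BP3 3 only PMVK of the 32 was called, at a log2 fold change of 1.20, beside 1.31% of all genes. The labels give no reason to leave out a library, and these values show how far 1 library moves the result.

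Of 43 other genes of the pathway, 0 were called by edgeR, beside 0% of the genes tested. DESeq2 called 4, beside 1.92% of the 36335 genes with any count. In edgeR, 9 of the 43 were higher at an unadjusted p under 0.05 and 2 lower, beside 13.6% and 8.54% of all genes, so the lower count was under its background and the higher one not far above it. The 9 that were higher were FDXR and CYB5R3 (electron supply), NPC2 (export of sterol from lysosomes), SLC25A1 (the mitochondrial citrate carrier), MID1IP1 (an activator of acetyl-CoA carboxylase), AGPAT2 (an acyltransferase of glycerolipid synthesis), and the nuclear receptors NR1H2, NR1H3 and RXRA. SLC25A1, with the smallest p, was at 50.1, 47.6 and 40.2 CPM in sh-NC and at 102.9, 89.6 and 72.1 CPM in sh-IGF2BP3. Its groups did not overlap, and its log2 fold change was 0.94 (SE 0.19, adjusted p = 0.103) and 0.29 (SE 0.15) with the trends removed, at a GC content of 65.6%. MBTPS2, a protease that releases SREBP, was lower, at 38.4, 56.0 and 49.6 CPM in sh-NC and 32.9, 30.9 and 37.6 CPM in sh-IGF2BP3, with a log2 fold change of -0.51 (SE 0.20) and -0.13 (SE 0.15) with the trends removed. NPC2 and MID1IP1 kept groups that did not overlap with the trends removed, at log2 fold changes of 0.56 (SE 0.17) and 0.57 (SE 0.19), from 0.47 and 0.79. The other genes of the 9 were all closer to 0 in that fit, between 0.07 (FDXR) and 0.40 (NR1H2), and SLC25A1, AGPAT2 and NR1H3 still did not overlap. Of the 43, groups did not overlap in 11 higher and 2 lower in sh-IGF2BP3, beside 13.2% and 11% of all genes. With the trends removed they did not overlap in 6 higher and 0 lower, beside 8.31% and 6.67%. AACS, named after its values were seen, was the remaining gene of these 6. The median log2 fold change of the 43 was 0.06, and 0.06 with the trends removed.

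Of these 43 genes, 6 had sh-NC 1, sh-IGF2BP3 2 and sh-IGF2BP3 3 as their 3 highest libraries, which is near the 11.7% of all genes of at least 10 mean CPM. LPIN1, a phosphatidate phosphatase, and TMEM97, a binding protein of sterols, are 2 of them and are given here because of their values, after these were seen. LPIN1 was at 122.9, 38.5 and 37.9 CPM in sh-NC and at 34.4, 117.7 and 130.2 CPM in sh-IGF2BP3, close in spread to HMGCS1. TMEM97 was at 112.6, 65.8 and 52.5 CPM in sh-NC and at 62.3, 99.5 and 110.4 CPM in sh-IGF2BP3. In both, the high libraries were those of INSIG1.

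ABCA1, which exports cholesterol and is induced by LXR when sterols accumulate, ran the other way. It was at 2.03, 6.65 and 13.1 CPM in sh-NC and at 4.80, 1.57 and 2.10 CPM in sh-IGF2BP3. Its log2 fold change was -1.35 (SE 0.53, adjusted p = 0.159), and -0.96 (SE 0.53) with the trends removed. ABCG1, a further LXR target named after its values were seen, was at 1.64, 4.30 and 8.33 CPM in sh-NC and at 4.35, 3.14 and 3.69 CPM in sh-IGF2BP3. In both genes sh-NC 1 was the lowest sh-NC library and sh-IGF2BP3 1 the highest sh-IGF2BP3 library, the reverse of INSIG1. The share of all genes with that order was not computed. Among the other genes of the pathway, 2 more were listed as LXR targets, and they differed from each other. MYLIP, a ubiquitin ligase, had the order of ABCA1 in these respects, at 14.7, 17.1 and 22.6 CPM in sh-NC and 18.0, 11.8 and 14.7 CPM in sh-IGF2BP3. LPCAT3, an acyltransferase of phospholipids, had that of INSIG1 with a narrower spread, at 41.9, 34.8 and 33.8 CPM in sh-NC and 33.7, 38.7 and 42.6 CPM in sh-IGF2BP3. ABCA1 and ABCG1 are low, at 0.461 and 0.707 mean FPKM.

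**Figure D5:**
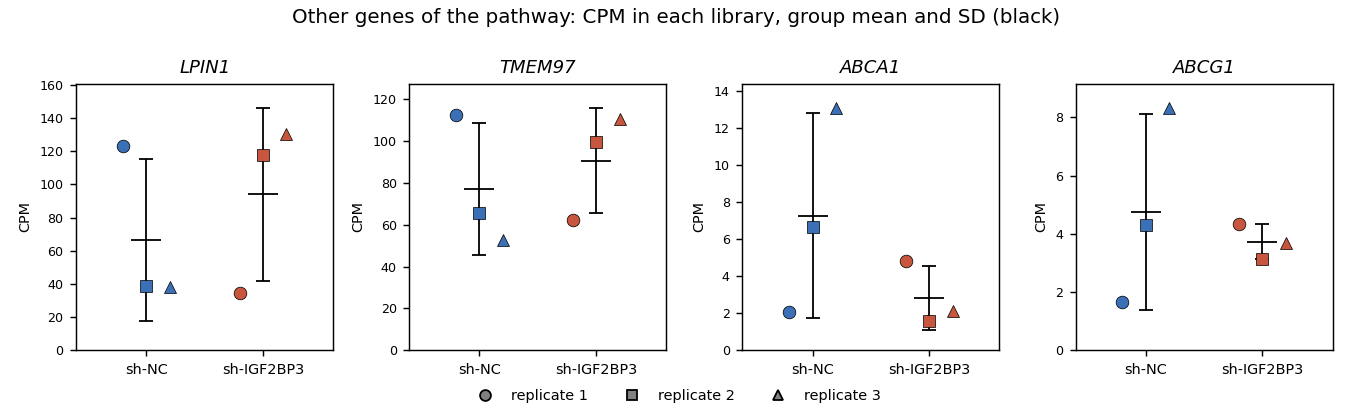
CPM of 4 other genes of the pathway in each library (points, replicate number by shape) with the mean and SD of each group of 3 (black). In LPIN1 and TMEM97 library 1 (circle) is the high sh-NC point and the low sh-IGF2BP3 point, and in ABCA1 and ABCG1 it is the low sh-NC point and the high sh-IGF2BP3 point.

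The spans of some genes, introns included, overlap the span of a neighbour. Whether their exons overlap was not examined. The use of strand in counting was not given in the sources used here, so it is not known whether reads of both partners were told apart there. FADS1 lies whole inside the span of FADS2 on the opposite strand (29692 bases), and FADS2 also overlaps FEN1, which is on its own strand. CYP51A1 overlaps AKAP9 over 25687 bases, and AKAP9 had 937 to 2618 counts per library against 164 to 699 counts for CYP51A1. FDPS overlaps the antisense RUSC1-AS1 over 3804 bases, with 542, 275 and 298 counts in sh-NC and 158, 431 and 512 in sh-IGF2BP3, an order of libraries like that of INSIG1. STARD4-AS1, antisense to STARD4, had 72, 129 and 139 counts in sh-NC and 41, 53 and 85 in sh-IGF2BP3, lowest in sh-NC 1 within sh-NC where STARD4 itself was highest. ACAT2 overlaps TCP1 over 615 bases, MVK overlaps MMAB over 326 bases and SREBF1 overlaps RAI1 over 1055 bases. The named partners were chosen after their values were seen.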

How the data were processed

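RNA was profiled in 6 HCT116 libraries, 3 sh-NC and 3 sh-IGF2BP3, made with a TruSeq RNA kit. The authors deposited whole-number counts per gene, with no normalization, on GRCh38. The authors also deposited FPKM values. Over 20969 genes with counts in all libraries these equal the count divided by the library total and by 1 gene length. CASAVA is named in the submitters' processing notes. The aligner, the counting tool and the use of strand are not given in the sources used here. All 12 columns were mapped from sample names and groups were taken from the labels. Within-group libraries differed by more than counting noise (chi-square per degree of freedom at least 19.0).

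The primary model to the counts was edgeR 4.0.16 in R 4.3.3 (filterByExpr, TMM, glmQLFit and glmQLFTest, all 6 libraries, no covariate). P-values were adjusted by Benjamini-Hochberg over all 16753 genes tested. A call needs a fold change over 1.5 and an adjusted p under 0.05, as in the study's methods. CPM are TMM-normalised, and log2 CPM used a prior count of 2. The trends with GC content and gene length of the longest GENCODE 29 transcript, known for 96.9% of tested genes and all 32 members, were removed as splines with 5 degrees of freedom. Alternatives were DESeq2 1.42.0, RLE factors, no filter, the replicate block, each library left out, any fold change, and limma 3.58.1 on log2(FPKM + 1), log2(FPKM + 0.1) and without its filter of a mean FPKM of 1. The fits were also run on simulated counts with known fold changes, drawn gene by gene at a fixed dispersion. The simulation held no order of libraries shared by a pathway, so how the fits behave under such an order was not tested.

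The members, the lists, the motifs and the tests were chosen with earlier results of these data known. The rule for named genes was that all 32 members are accounted for, with values per library for the 5 regulators, for members whose groups do not overlap and for those with a 1.5-fold spread within a group. Of the other pathway genes those with an unadjusted p under 0.05 are named, and any other gene was chosen after its values were seen. Although the series is described as pairs, the sources used here do not say which libraries form them. The numbers were not taken as pairs, since the deviations of same-numbered libraries correlated at -0.284, -0.186 and -0.043.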

Additional observations from a re-analysis of the deposited data

How the results depend on the processing

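The count of members called, 0 by edgeR, was 3 by DESeq2 (MVD, LSS and FASN, all higher). It was 7 without the filter on low counts (MVK, PMVK, MVD, FDPS, LSS, CYP51A1 and FASN). Of the 36335 genes with any count, these settings called 1.92% and 2.3%, shares that include genes at very low counts. The count of members called was 0 to 17 when 1 library was left out, 17 without sh-NC 1. In that fit 15.7% of all genes were called in either direction. The cause was not tested. The count at an unadjusted p under 0.05 was 3 after removal of the trends and 6 to 19 with 1 library left out. For the fits with 1 library left out, the share of all genes at that p was not computed. The median log2 fold change was 0.19 to 0.75 with 1 library left out. The count of other pathway genes called, 0, was 4 by DESeq2 and 5 without the filter, beside the same shares of all genes as above. It was 0 to 11 with 1 library left out, where 0% to 15.7% of all genes were called. With the replicate number as a block, 0 members and 0% of all genes were called, and the median was 0.41. In that fit 8 members had an unadjusted p under 0.05, a share not computed for all genes. IGF2BP3 stayed below 0, at -0.66 to -0.46, with 1 library left out.

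With the trends removed, the log2 fold change turned to -0.22 for TM7SF2, -0.067 for SCAP, 0.27 for STARD4, -0.13 for ACSS2, 0.15 for ACACA and -0.17 for FADS2. In limma on log2(FPKM + 1), with or without its filter, it turned to -0.11 for MSMO1, -0.025 for ACSS2, -0.034 for ELOVL6, -0.029 for FADS1 and -0.0048 for FADS2. With 0.1 in place of 1 these were -0.12, -0.026, -0.039, -0.031 and -0.0056. With 1 library left out, the values ran from -0.25 to 0.28 for STARD4, from -0.21 to 0.099 for ACACA, from -0.19 to 0.51 for MSMO1 and from -0.15 to 0.31 for ACSS2. They ran from -0.10 to 0.27 for ELOVL6, from -0.065 to 0.14 for FADS1, from -0.047 to 0.24 for FADS2, from -0.0054 to 0.64 for HSD17B7, from -0.52 to 0.020 for SC5D and from -0.088 to 0.39 for SCD. In none of these settings did a gene that changed sign pass the adjusted threshold.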
